A study of Mus musculus with 6 samples.

Results

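The type I interferon response genes described here are 36 antiviral and signalling genes, chosen by symbol and found as 36 rows among the 34745 genes of the deposited table, 1 row each. Expression was measured by RNA sequencing in RAW 264.7 cells, an established macrophage line made from a virus-induced tumour of a BALB/c mouse. Cells received bisphenol AP (BPAP), an analogue of the plastic monomer bisphenol A, or DMSO, its solvent, with 3 libraries per group. All libraries come from this single line, and the labels used here give no dose and no exposure time. They also do not say whether replicates were separate cultures, so the p-values reflect only the spread among these 6 libraries, which could be technical. The series is about BPAP, macrophages and lung fibrosis.

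Type I interferons are cytokines made by cells that detect viral RNA or DNA. They bind the receptor chains IFNAR1 and IFNAR2, whose kinases JAK1 and TYK2 phosphorylate STAT proteins, among them STAT2. Phosphorylated STAT2 enters a complex with IRF9, ISGF3, that binds the interferon-stimulated response element (ISRE) in the promoters of the response genes. Macrophages are both a source and a target of interferon, and keep a low level of many response genes without infection.

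The ISRE is shown first, because its core was the promoter feature searched across the members. The letters searched were GAAA, any 2 bases and GAAA again, on both strands, overlaps allowed, within the RefSeq promoter table of build GRCm38.p6, which covers 250 bases before to 50 after each annotated start. Of the 36 members, 28 matched the table by symbol, with 35 windows, and 16 of those 28 (57.1%) held the letters in at least 1 window. Of all 27025 genes listed there, 3.99% did. By the test described below, the letters were in 5 of 6 matched members that rose and in the 1 matched member that fell. They were in 5 of 15 that did not pass and in 5 of 6 with too few counts to test. A relation between the core and the change was not tested. The 150 bases before the start are printed below for 4 members that rose under BPAP and had a match, for Oas3, which fell and had a match, and for Oasl1, which rose and had none in its window. The sequences are of the reference mouse strain, with the core in capitals on either strand.
Isg15, chr4:156200819-156200968, minus strand: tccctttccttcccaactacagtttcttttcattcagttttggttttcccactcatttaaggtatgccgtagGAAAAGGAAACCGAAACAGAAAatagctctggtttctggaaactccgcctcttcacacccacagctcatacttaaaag
Rsad2, chr12:26456453-26456602, minus strand: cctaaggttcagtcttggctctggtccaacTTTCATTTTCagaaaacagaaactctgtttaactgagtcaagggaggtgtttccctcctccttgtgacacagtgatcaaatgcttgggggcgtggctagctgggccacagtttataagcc
Bst2, chr8:71537473-71537622, minus strand: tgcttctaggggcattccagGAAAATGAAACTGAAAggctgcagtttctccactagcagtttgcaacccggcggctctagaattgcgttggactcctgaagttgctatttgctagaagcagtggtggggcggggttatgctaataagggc
Oas1g, chr5:120887614-120887763, minus strand: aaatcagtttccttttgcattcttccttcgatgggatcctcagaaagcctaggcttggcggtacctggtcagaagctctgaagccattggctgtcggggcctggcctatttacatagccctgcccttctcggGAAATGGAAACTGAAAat
Oas3, chr5:120777660-120777809, minus strand: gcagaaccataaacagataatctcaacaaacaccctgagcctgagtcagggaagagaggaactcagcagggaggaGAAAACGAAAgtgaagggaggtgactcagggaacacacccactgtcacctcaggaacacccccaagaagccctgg
Oasl1, chr5:114923090-114923239, plus strand: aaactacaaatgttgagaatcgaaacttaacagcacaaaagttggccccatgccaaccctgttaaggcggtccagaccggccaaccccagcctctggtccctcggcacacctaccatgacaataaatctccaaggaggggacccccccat
The core occurred 3 times in overlap in Isg15, with the first copy 78 bases before the start. Bst2 held 2 overlapping copies starting 130 and 124 bases before the start, and Oas1g held 2 starting 18 and 12 bases before it. Rsad2 and Oas3 held 1 copy each, 120 and 75 bases before the start. A match to these letters is a description of the sequence and does not show binding.

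BPAP-treated cells had more RNA of a few antiviral effectors. The 5 tested members grouped here as RNA and DNA sensors and the 3 transcription factors did not pass the test. Neither did Isg20, which was grouped with the effectors. A difference between the roles was not tested. The OAS family, which also senses RNA, was grouped apart, and 3 of its genes rose and 1 fell. In these bulk libraries, fewer cells expressing a gene and less RNA per cell cannot be told apart. Of the 36 members, 28 passed edgeR's filter on low counts and were tested, and 6 rose and 2 fell at an adjusted p of 0.05. Values are CPM, counts scaled to library size. Those that rose were Isg15, Oasl1, Rsad2, Oas1g, Bst2 and Oas1a, and those that fell were Oas3 and Parp14. The 8 members called are 28.6% of those tested, and 31.7% of all 11711 genes tested were called in the same fit. The share called higher was 21.4% of members against 16.2% of all genes, and the share called lower was 7.14% against 15.5%. The groups were separate in 14 of the 28 members and in 49.0% of all tested genes. The shares called in either direction and with separate groups are near those of the whole table, so the count of calls does not set the list apart. The share called lower rests on 2 members and is below that of all genes, a difference that was not tested. The median log2 fold change of the tested members was 0.13, and that of all tested genes was 0.02. The members' median was 0.25 without DMSO 2, 0.07 without DMSO 3 and 0.27 without BPAP 3, and 0 members fell without DMSO 2 or without BPAP 3.

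**Figure D1:**
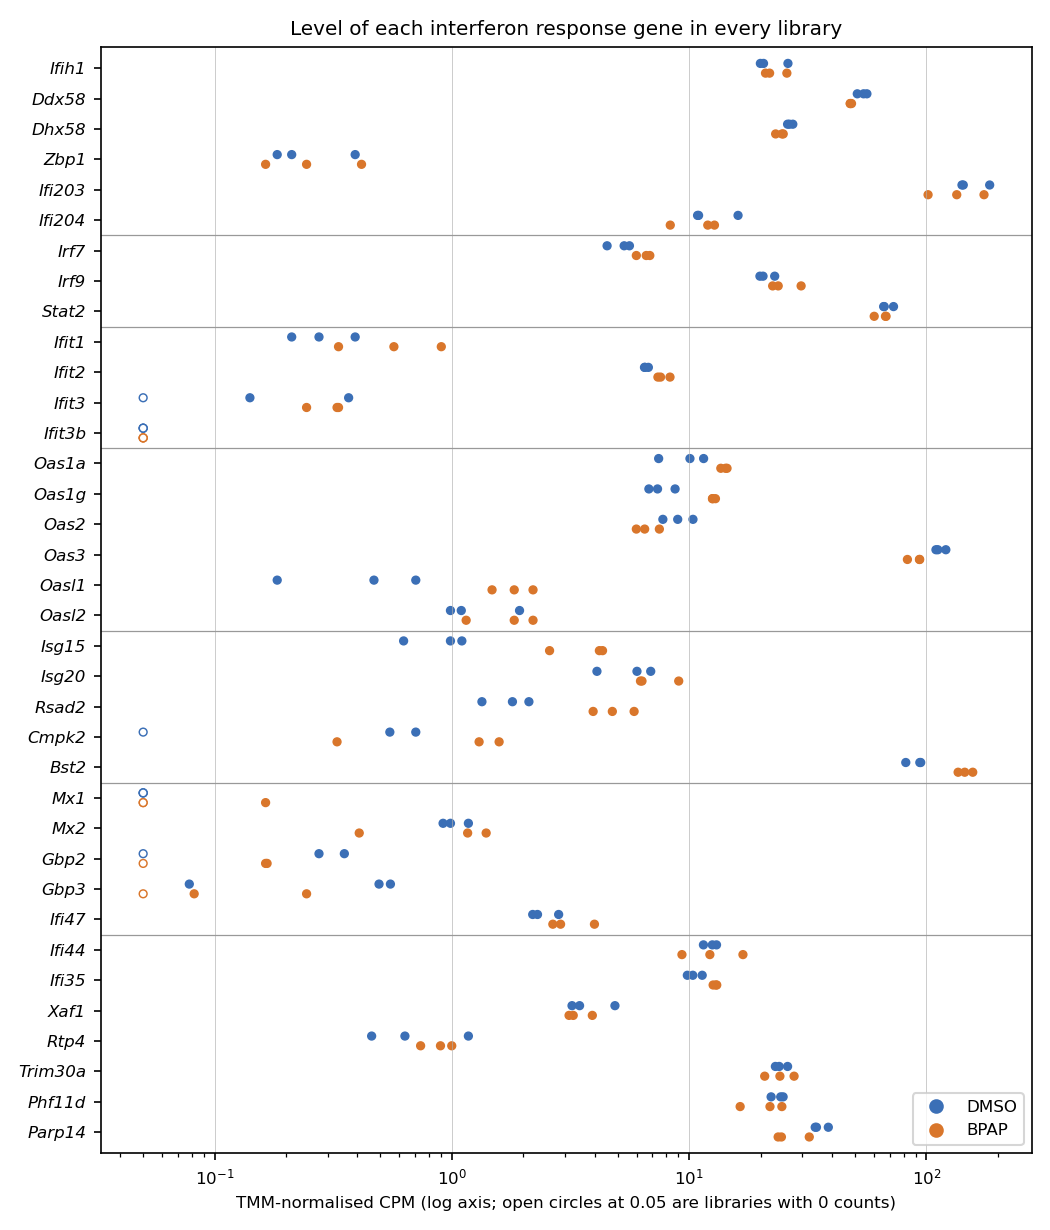
Counts scaled to library size (TMM-normalised CPM, log axis) of the 36 members in each of the 3 DMSO and 3 BPAP libraries, 1 point per library, with lines between the groups of roles and open circles for libraries with 0 counts. Isg15, Oasl1 and Rsad2 have separate groups, and Bst2, Ifi203 and Oas3 lie highest.

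Levels in DMSO-treated cells were low for most members. Per kilobase of merged exon, in CPM per kilobase, 30 of the 36 lay at or below the median of all tested genes, which was 6.93. These 30 include the 8 members that were not tested, each at 0.115 or less. That median leaves out genes below the filter, so those 8 were bound to lie under it. Bst2, which encodes tetherin, a membrane protein that holds budding virus particles at the cell surface, was highest at 99.7 ± 7.90 (SD, n = 3). Ifi203 followed at 23.3 ± 3.67, Oas3 at 16.1 ± 0.83, Stat2 at 11.5 ± 0.63, Dhx58 at 8.12 ± 0.21 and Ddx58 at 7.64 ± 0.36 CPM per kilobase. Neighbours among these 6 differed by more than the SD of either, while Ifi35 at 6.08 ± 0.45 and Trim30a at 5.92 ± 0.36, next in order, did not differ beyond their SDs. Isg15 stood 21st at 1.196 ± 0.328, Rsad2 24th at 0.40 ± 0.09 and Oasl1 28th at 0.17 ± 0.10. In BPAP-treated cells Isg15 reached 4.88 ± 1.28 CPM per kilobase, still below the DMSO median of all tested genes. Rsad2 reached 1.12 ± 0.22 and Oasl1 0.70 ± 0.14.

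The summed level of the 36 members was 762, 720 and 706 CPM in the DMSO libraries and 810, 703 and 720 CPM in the BPAP libraries. These ranges overlap. Without Bst2 the sums were 680, 627 and 611 CPM in DMSO and 674, 546 and 575 CPM in BPAP, also overlapping. Bst2 alone made up 10.7% to 13.4% of the sum in DMSO and 16.8% to 22.3% in BPAP.

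The 6 libraries held 11084705 to 13806559 counts each. At these depths 3 counts equal 0.275 CPM in DMSO 1, the smallest, and 0.211 CPM in DMSO 3, the largest; such limits cover counting error only. Of 12 macrophage markers, 11 matched a single row of the table and 10 were tested. Of these 10, 7 rose and 2 fell (Csf1r and Ptprc), against 16.2% and 15.5% of all genes tested. Mertk had 0 counts. The part of the macrophage markers in the members' changes was not tested. Their summed level was 4933 to 5563 CPM in DMSO and 5585 to 5982 CPM in BPAP. None of the T cell, B cell, fibroblast and epithelial markers passed the filter, with summed levels of at most 0.39, 0.46, 1.06 and 0.08 CPM in any library, and Cd3e, Ms4a1, Pdgfra and Epcam were at 0 in all libraries. Among plasmacytoid dendritic cell markers, Siglech had at most 2 counts in a library, Ccr9 and Ly6d had 0, Tcf4 fell and Bst2, also a member here, rose. Across all 11677 tested genes with an exon length, log2 fold changes fell with that length (Spearman correlation -0.40, across genes, which are not independent replicates). Exon length is therefore given beside the members' changes, with a length-adjusted log2 fold change, fitted after subtracting the smooth dependence of each library on exon length and GC content. Wherever length adjustment is named below, this fit is meant, and it removes the GC trend too.

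ISG15 is a ubiquitin-like protein that is attached to other proteins during the response. Isg15 (chromosome 4, 156199424 to 156200818, GRCm38) stood at 1.10, 0.63 and 0.99 CPM in the DMSO libraries and at 4.31, 2.58 and 4.18 CPM in the BPAP libraries. Every BPAP library was above every DMSO library. The gene rose 4.07-fold (log2 fold change 2.03, SE 0.32, edgeR adjusted p = 0.00178), the largest change among the tested members. Behind these values were 8 to 14 counts per DMSO library and 31 to 53 per BPAP library. Its merged exons hold 756 bases, the fewest among the members, and the length-adjusted log2 fold change was 1.63 (edgeR adjusted p = 0.00950).

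Viperin, the product of Rsad2, is a radical SAM enzyme that makes a chain-terminating nucleotide. Rsad2 (chromosome 12, 26442753 to 26456452) stood at 2.11, 1.80 and 1.34 CPM in DMSO and at 5.86, 4.74 and 3.94 CPM in BPAP, with no overlap. It rose 2.79-fold (log2 fold change 1.48, SE 0.25, edgeR adjusted p = 0.00261). Its length-adjusted value was 1.51, and its 4335 exon bases are close to the median of 4296 for all tested genes. Cmpk2, which makes the nucleotide that viperin converts, lies 12751 bases away on the other strand. Its counts were 0, 7 and 10 with DMSO and 16, 19 and 4 with BPAP, below the filter, so it was not tested. The groups overlapped in Cmpk2 through BPAP 3.

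Tetherin RNA was the most abundant of the members that rose. Bst2 (chromosome 8, 71534264 to 71537437) stood at 81.8, 93.7 and 94.5 CPM in DMSO and at 136, 157 and 145 CPM in BPAP. The groups were separate, with a rise of 1.62-fold (log2 fold change 0.70, SE 0.10, edgeR adjusted p = 0.00115). Bst2 has 903 exon bases, and the length-adjusted log2 fold change was 0.33 (edgeR adjusted p = 0.0189). Isg20, an exonuclease gene of the same group of effectors, was at 6.88, 6.02 and 4.09 CPM in DMSO and 9.03, 6.32 and 6.23 CPM in BPAP. Those values overlapped and did not pass (log2 fold change 0.36, 95% interval -0.16 to 0.87).

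The oligoadenylate synthetase family moved both ways. OAS enzymes sense double-stranded RNA and make 2'-5'-linked oligoadenylates that activate RNase L, while mouse OASL1 lacks this activity. Of the 6 members, all were tested, 3 rose, 1 fell and 2 did not pass. Of all genes tested, 16.2% rose and 15.5% fell. Oas1a and Oas1g, among the 3 that rose, are near copies, so they may not be separate results.

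Oasl1 (chromosome 5, 114923240 to 114937915), whose mouse product restrains translation of Irf7 mRNA, stood at 0.18, 0.47 and 0.70 CPM in DMSO and at 2.20, 1.83 and 1.48 CPM in BPAP. The groups were separate, with 2 to 10 counts per DMSO library and 18 to 27 per BPAP library. It rose 3.83-fold (log2 fold change 1.94, SE 0.41, edgeR adjusted p = 0.00647), and by 1.75 on the length-adjusted log2 scale. Its neighbour Oasl2, 11005 bases away, was at 1.93, 1.10 and 0.99 CPM in DMSO and 2.20, 1.83 and 1.15 CPM in BPAP. These overlapped and did not pass (log2 fold change 0.40, 95% interval -0.40 to 1.19).

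Oas1g, Oas1a, Oas2 and Oas3 lie within 177189 bases of chromosome 5. Oas1g (120876142 to 120887613) was at 8.72, 7.35 and 6.76 CPM in DMSO and 12.5, 12.9 and 12.5 CPM in BPAP. It rose 1.67-fold (log2 fold change 0.74, SE 0.15, edgeR adjusted p = 0.00515), with separate groups. Oas1a (120896256 to 120907521) was at 7.44, 11.5 and 10.1 CPM in DMSO and 13.6, 14.2 and 14.4 CPM in BPAP, also separate. It rose 1.45-fold (log2 fold change 0.54, SE 0.17, edgeR adjusted p = 0.0323), with DMSO 1 the lowest library. These genes are near copies. Of the distinct 50-base stretches in the annotated transcripts of Oas1a, 56.9% also occur in those of Oas1g, so their separate counts are uncertain. The summed level of both was 16.2, 18.9 and 16.8 CPM in DMSO and 26.1, 27.1 and 27.0 CPM in BPAP, and no DMSO library reached a BPAP library. The call of Oas1a was lost without DMSO 1 (edgeR adjusted p = 0.0977), DMSO 3 (0.0715), BPAP 1 (0.0555), BPAP 2 (0.0533) or BPAP 3 (0.0705), and after length adjustment (log2 fold change 0.24, adjusted p = 0.279). That of Oas1g was kept in all 6 such fits and after length adjustment (0.49, adjusted p = 0.0353).

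Oas3 (120753098 to 120777661), the member of this family with the highest level per kilobase, fell. It stood at 110, 121 and 112 CPM in DMSO and at 93.6, 93.4 and 83.1 CPM in BPAP. All BPAP libraries were below all DMSO libraries, and the gene was 1.27-fold lower (log2 fold change -0.34, SE 0.09, edgeR adjusted p = 0.0176). Its call was lost without DMSO 2 (adjusted p = 0.0791) or BPAP 3 (0.0626). Its exons hold 7069 bases, and the length-adjusted log2 fold change was -0.27 (edgeR adjusted p = 0.0360). With the trend along the length behind FPKM removed instead, it was -0.26 and not called (adjusted p = 0.0624). Oas2 was at 10.4, 7.75 and 8.95 CPM in DMSO and 7.49, 6.49 and 5.99 CPM in BPAP. The groups were separate but the gene did not pass (log2 fold change -0.43, SE 0.17, edgeR adjusted p = 0.0746).

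**Figure D2:**
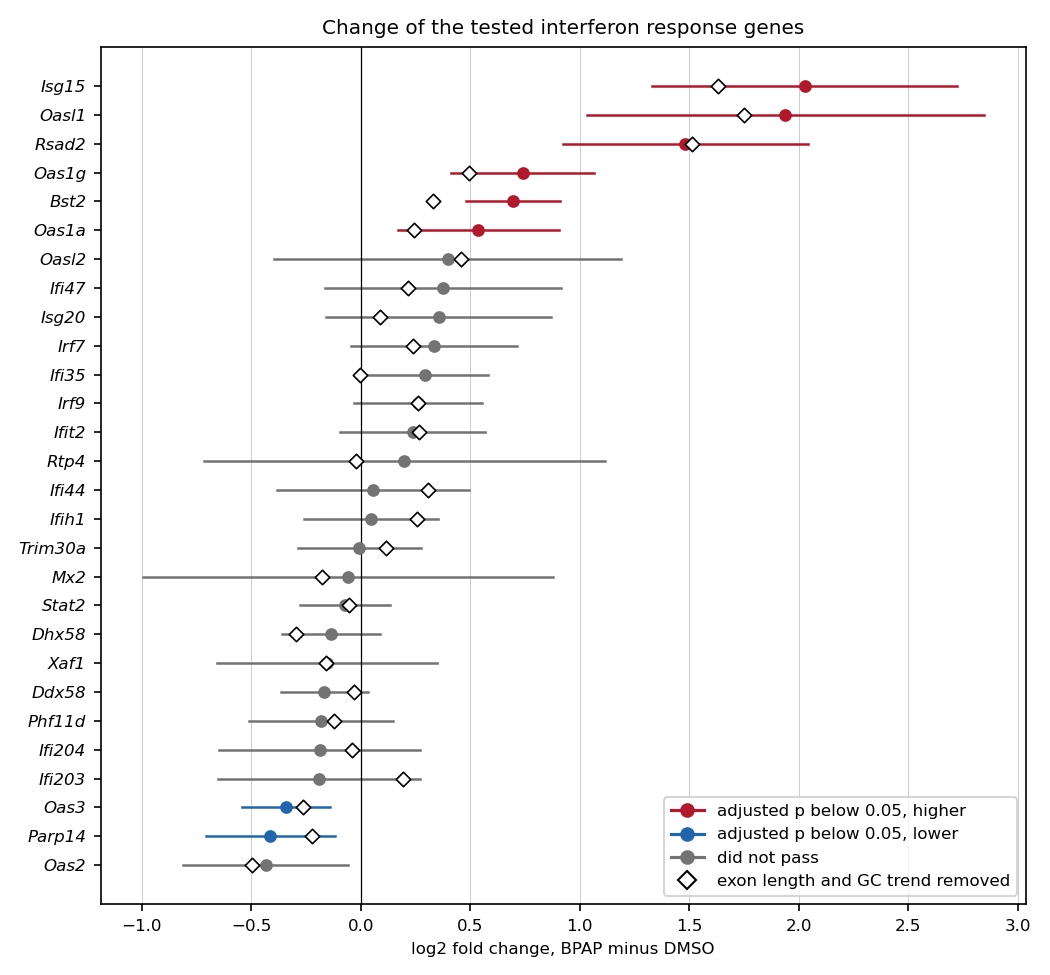
Log2 fold change (BPAP minus DMSO) of the 28 tested members, with 95% intervals of the edgeR fit over 3 libraries per group, and open diamonds for the length-adjusted fit. Isg15, Oasl1 and Rsad2 lie apart from the other members at 2.03, 1.94 and 1.48, and their diamonds lie at 1.63, 1.75 and 1.51.

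Of the 6 members grouped as RNA and DNA sensors, 5 were tested and did not pass in either direction. The OAS family described above, which also senses RNA, was grouped apart. MDA5 (Ifih1), RIG-I (Ddx58) and LGP2 (Dhx58) are cytosolic helicases that detect viral RNA. Ifih1 was at 26.1, 19.95 and 20.6 CPM in DMSO and 25.8, 21.0 and 21.8 CPM in BPAP, overlapping (log2 fold change 0.05, 95% interval -0.26 to 0.35). Ddx58 was at 56.1, 51.1 and 54.3 CPM in DMSO and at 47.7, 47.8 and 48.3 CPM in BPAP. The groups did not overlap, and the change of -0.17 did not pass (95% interval -0.37 to 0.03, edgeR adjusted p = 0.179). Dhx58 behaved similarly, at 25.98, 26.4 and 27.3 CPM in DMSO and 24.9, 23.1 and 24.6 CPM in BPAP, without overlap (log2 fold change -0.14, 95% interval -0.36 to 0.09).

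Ifi203 and Ifi204 belong to the mouse PYHIN family on chromosome 1, some of whose members bind DNA. Ifi203 was the member with the highest CPM in DMSO, at 185, 143 and 141 CPM, against 175, 102 and 134 CPM in BPAP. Its groups overlapped, with BPAP 2 the lowest library. The log2 fold change of Ifi203 was -0.19 (95% interval -0.65 to 0.27) and became 0.19 after adjustment for exon length and GC, neither past the threshold. With only the trend along the length behind FPKM removed it was -0.10. Ifi204 was at 16.1, 10.95 and 10.8 CPM in DMSO and 12.8, 8.32 and 12.0 CPM in BPAP, overlapping. Counts of both are uncertain, since 12.4% and 20.02% of their 50-base stretches occur in transcripts of other genes. Zbp1, which encodes a sensor of Z-form nucleic acid, had 2 to 5 counts in every library and was not tested.

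The transcription factors that carry the signal showed small differences. Stat2 was at 72.6, 66.3 and 66.0 CPM in DMSO and 67.5, 67.2 and 60.2 CPM in BPAP. The groups overlapped (log2 fold change -0.07, 95% interval -0.28 to 0.13). Irf9, the DNA-binding subunit of ISGF3, was at 20.5, 22.9 and 19.9 CPM in DMSO and 29.6, 23.7 and 22.5 CPM in BPAP, overlapping, with BPAP 1 the highest (log2 fold change 0.26, 95% interval -0.03 to 0.55). Irf7, the factor that amplifies interferon alpha transcription, was at 5.60, 5.32 and 4.51 CPM in DMSO and 6.59, 6.82 and 5.99 CPM in BPAP. The groups did not overlap, and the change of 0.33 (95% interval -0.04 to 0.71) did not pass (edgeR adjusted p = 0.159).

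Genes of the IFIT family, whose proteins bind foreign RNA and block its translation, were nearly silent apart from Ifit2. Ifit2 was at 6.52, 6.73 and 6.48 CPM in DMSO and 8.30, 7.57 and 7.38 CPM in BPAP. The groups did not overlap, and the change did not pass (log2 fold change 0.24, 95% interval -0.09 to 0.57, edgeR adjusted p = 0.248). Ifit1 had 3, 5 and 3 counts in DMSO and 7, 4 and 11 in BPAP, and Ifit3 had 4, 0 and 2 counts in DMSO and 3, 4 and 4 in BPAP. Neither was tested. No count of Ifit3b was seen in any library, and the limit of 3 counts allows a level of up to 0.275 CPM in DMSO 1. Of the 50-base stretches of Ifit3, 51.2% occur in Ifit3b, so the table may not separate these neighbours.

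Of the 5 GTPases in the list, 3 were below the filter and the other two did not pass. The dynamin-like antiviral gene Mx1, which is disrupted in most laboratory mouse strains, had 0 counts in 5 libraries and 2 counts in BPAP 3. Mx2 was at 0.92 to 1.17 CPM in DMSO and 0.41 to 1.39 CPM in BPAP, overlapping. The guanylate-binding protein genes Gbp2 and Gbp3 had at most 5 and 7 counts in a library and were not tested. Ifi47, of the immunity-related GTPases, was at 2.29, 2.19 and 2.82 CPM in DMSO and 3.99, 2.66 and 2.87 CPM in BPAP, overlapping, and did not pass.

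Among the remaining members, Parp14, an ADP-ribosyltransferase gene, fell. It stood at 34.0, 38.6 and 34.4 CPM in DMSO and at 32.1, 24.5 and 23.7 CPM in BPAP, without overlap, with BPAP 1 closest to the DMSO libraries. It was 1.33-fold lower (log2 fold change -0.41, SE 0.13, edgeR adjusted p = 0.0378). That call was lost without DMSO 1 (adjusted p = 0.0582), DMSO 2 (0.129), DMSO 3 (0.0726), BPAP 2 (0.0836) or BPAP 3 (0.114). Parp14 has 9306 exon bases, the most among the members, and its length-adjusted value was -0.22 (edgeR adjusted p = 0.240). Ifi35, whose product binds the protein Nmi, was at 9.82, 11.3 and 10.4 CPM in DMSO and 12.6, 13.1 and 13.0 CPM in BPAP. Its groups did not overlap, and it did not pass (log2 fold change 0.29, edgeR adjusted p = 0.110). After adjustment for exon length and GC the value was -0.01, and with only the trend along the length behind FPKM removed it was 0.17. Ifi44, Xaf1, Rtp4, Trim30a and Phf11d had overlapping groups and log2 fold changes between -0.18 for Phf11d and 0.20 for Rtp4, none past the threshold.

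Of the 15 tested members with at most the median exon length of 4296 bases, 5 rose and 0 fell, and their median change was 0.33 (log2). Among all 5840 genes of that class 24.5% rose and 6.03% fell, the median being 0.17. Of the 13 longer members, 1 rose, which was Rsad2, and 2 fell, with a median of -0.16. Among the 5837 longer genes 8.02% rose and 24.98% fell, the median being -0.13. After length adjustment 5 members rose (Isg15, Oasl1, Rsad2, Oas1g and Bst2) and 1 fell (Oas3), against 11.8% and 10.9% of 11665 genes. How far exon length or GC accounts for the change of any 1 member was not tested.

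**Figure D3:**
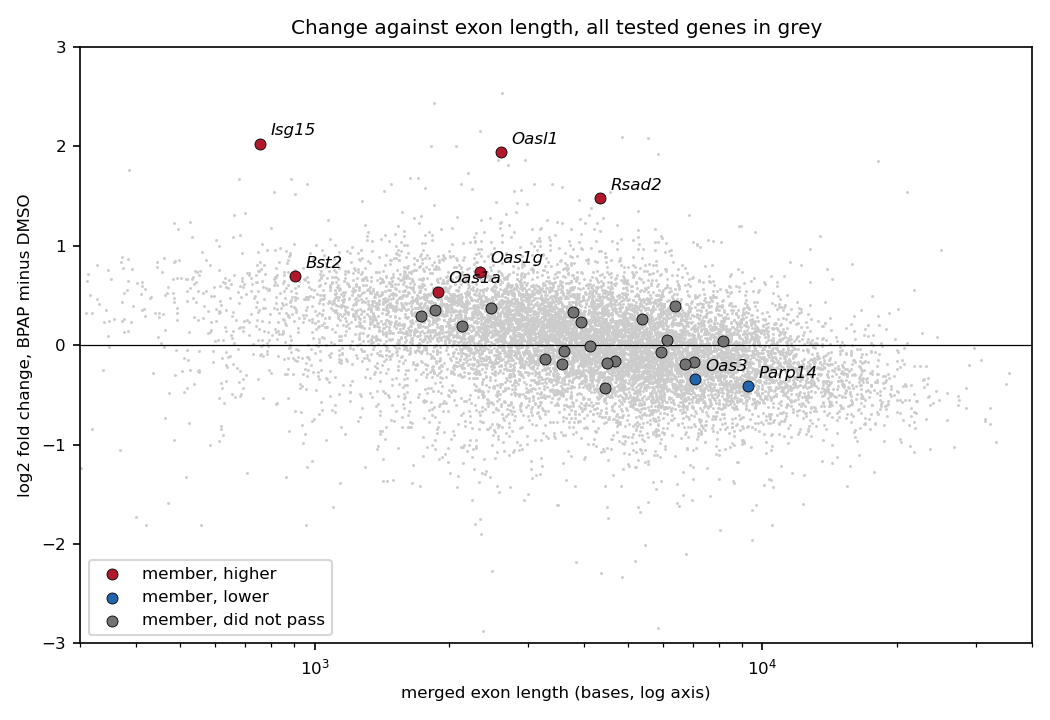
Log2 fold change (BPAP minus DMSO) against merged exon length in bases (log axis), with all tested genes in grey and the 28 tested members coloured by call, 27 genes lying outside the axes. Grey points fall with length, and Isg15, Oasl1 and Rsad2 lie above the bulk of genes of their length.

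Genes upstream of the members were read from lists chosen by role. All 21 interferon ligand genes, among them Ifnb1, Ifng and the Ifna genes, were at 0 counts throughout, with the same limit of 0.275 CPM in DMSO 1. Of 15 receptor and JAK-STAT genes, all tested, 1 rose and 1 fell, against 16.2% and 15.5% of all genes tested. Without DMSO 2 and after length adjustment 0 of the 15 were called, and without BPAP 2, 2 rose. The median log2 fold change of this list, -0.14, was -0.02 without BPAP 2 and with the trend along the length behind FPKM removed. Ifnar1 and Ifnar2, the receptor chains, were at 148 ± 13.5 and 80.9 ± 5.63 CPM in DMSO and at 134 ± 21.4 and 94.95 ± 6.10 CPM in BPAP (SD, n = 3), and neither passed (log2 fold changes -0.14 and 0.23). Without BPAP 2 Ifnar2 was past the threshold (edgeR adjusted p = 0.0375). Irf1 stood at 12.6 ± 1.18 and 10.4 ± 1.575 CPM, and did not pass. Ifngr2, a chain of the interferon gamma receptor, rose 1.25-fold (edgeR adjusted p = 0.0218), a call lost without DMSO 2 (0.0965) or BPAP 1 (0.0838) and after length adjustment (0.112). Jak2, its kinase, was 1.301-fold lower (adjusted p = 0.0440), a call lost without DMSO 1 (0.0790), DMSO 2 (0.0942), DMSO 3 (0.116) or BPAP 2 (0.0544), after length adjustment (0.0635) and with upper quartile scaling (0.0509).

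In the induction pathway, which leads from sensing to interferon transcription, 2 of 20 tested genes rose and 3 fell. Of all genes tested, 16.2% rose and 15.5% fell. Ikbke, a kinase of IRF3, was at 43.5, 35.9 and 41.7 CPM in DMSO and 26.5, 17.9 and 24.7 CPM in BPAP. The groups were separate, and it was 1.75-fold lower (log2 fold change -0.81, SE 0.15, edgeR adjusted p = 0.00387). The related kinase gene Tbk1 was 1.24-fold lower and the adaptor gene Tank 1.29-fold lower, while the adaptor genes Ticam2 and Ticam1 were 1.42-fold and 1.43-fold higher. Ticam2 shares 838 exon bases with the more highly counted Tmed7 on the same strand, so its count is uncertain. After adjustment for exon length and GC, Ikbke (-0.69), Tbk1 (-0.35) and Ticam2 (0.62) were called, and Tank (0.02) and Ticam1 (0.35) were not. With only the trend along the length behind FPKM removed, Tank was at -0.25 and not called. The calls of Tbk1 were lost without DMSO 2 (adjusted p = 0.0615), DMSO 3 (0.0670), BPAP 1 (0.0607) or BPAP 3 (0.0743). Those of Tank were lost in every fit without 1 library but the one without BPAP 1 (0.0513 to 0.0926), and those of Ticam1 without any DMSO library or BPAP 2 (0.0819 to 0.126). Over the fits without 1 library, 1 to 4 genes rose and 1 or 2 fell, with 4 rising and 1 falling without BPAP 3. Irf3 itself was at 15.6 ± 2.90 and 16.8 ± 4.10 CPM (SD, n = 3), and did not pass.

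Among genes of feedback and restraint, 1 of 16 tested rose and 3 fell, against 16.2% and 15.5% of all genes tested. Samhd1, whose product degrades deoxynucleotides and is mutated in a human interferonopathy, was at 215, 188 and 191 CPM in DMSO and 149, 127 and 139 CPM in BPAP. It was 1.43-fold lower with separate groups (log2 fold change -0.52, SE 0.10, edgeR adjusted p = 0.00367). Trim24, a chromatin reader that restrains interferon signalling in mouse liver, was 1.45-fold lower, and the phosphatase gene Ptpn6 1.28-fold lower, a call lost without DMSO 1 (0.119), DMSO 2 (0.126), BPAP 1 (0.0608) or BPAP 3 (0.131), with upper quartile scaling (0.0540) and with limma-trend on log2(FPKM + 1) over all genes above 0 (0.0834). Usp18, which removes ISG15 from proteins and blocks the receptor, stood at 10.5, 13.3 and 13.7 CPM in DMSO and 16.6, 16.8 and 18.9 CPM in BPAP. It rose 1.39-fold (edgeR adjusted p = 0.0267), a call lost without DMSO 1 (0.0927), DMSO 2 (0.0556) or BPAP 3 (0.0784) and after length adjustment (0.129).

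Of 65 further tested interferon-induced genes outside the 36, 10 rose and 6 fell, against 16.2% and 15.5% of all genes tested. The median log2 fold change of this list was 0.04. It ranged from 0.00038 without BPAP 1 to 0.094 without BPAP 2, with 0.011 without DMSO 1. Fcgr1, the high-affinity IgG receptor gene, was at 19.0, 17.8 and 19.1 CPM in DMSO and 51.1, 40.7 and 39.7 CPM in BPAP. Fcgr1 is also among the macrophage markers counted above. It rose 2.35-fold with separate groups (log2 fold change 1.23, SE 0.12, edgeR adjusted p = 0.000421), and by 1.02 on the log2 scale after length adjustment. The chemokine gene Ccl5 stood at 0.83, 1.10 and 2.18 CPM in DMSO and 5.29, 4.58 and 3.20 CPM in BPAP, a 3.09-fold rise with separate groups (edgeR adjusted p = 0.00647). Cxcl10, a chemokine gene that interferon induces strongly, was at 2.48, 2.03 and 1.27 CPM in DMSO and 2.36, 2.41 and 2.21 CPM in BPAP. Those values overlapped and did not pass (log2 fold change 0.29, 95% interval -0.33 to 0.92). In the Schlafen family Slfn2 rose 1.69-fold and Slfn9 was 1.83-fold lower. Ifi27l2a rose 1.41-fold, and after length adjustment its log2 fold change was 0.07 (edgeR adjusted p = 0.658). Without DMSO 1, 6 of these genes rose and 2 fell, and without DMSO 3, 3 fell. After length adjustment 5 rose and 4 fell, against 11.8% and 10.9% of all genes in that fit.

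**Figure D4:**
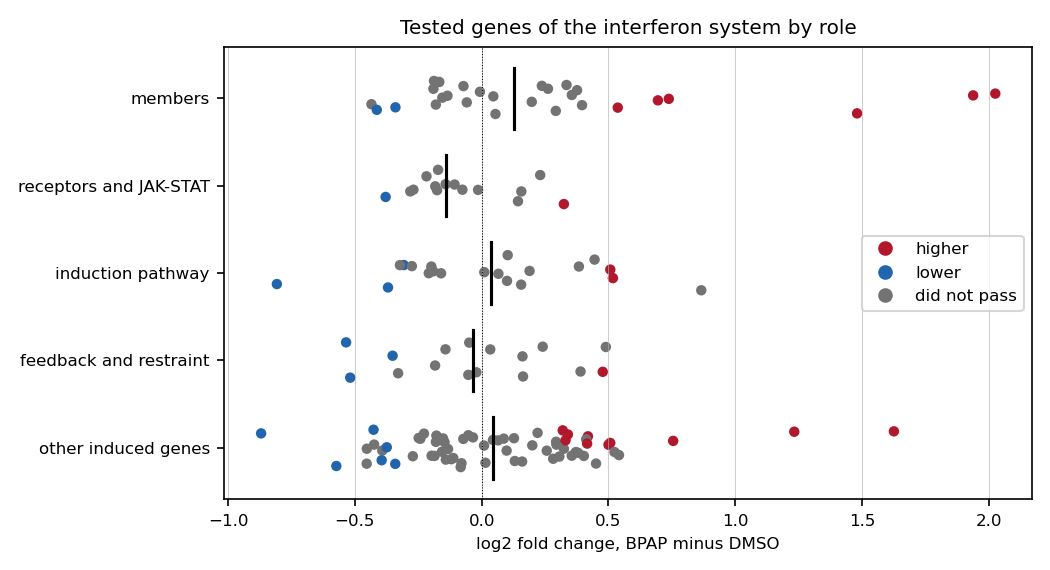
Log2 fold change (BPAP minus DMSO) of each tested gene in 5 lists of the interferon system, coloured by call, with the median of each list as a bar. Medians lie between -0.14 for receptors and JAK-STAT genes (-0.02 without BPAP 2) and 0.13 for the members.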

How the data were processed

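The split into groups and the replicate numbers came from the sample titles, which call the DMSO group Control and do not themselves name DMSO. The authors deposited whole-number counts and FPKM values per gene for each of the 6 libraries, per the file headers. Per the submitters' processing notes, HISAT2 2.0.4, StringTie 1.3.3b and edgeR were used with build GRCm38, with no role given. The annotation release, the strand setting and the handling of multiply mapped reads were not given in the sources used.

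All tests used the counts. edgeR 4.0.16 (R 4.3.3) applied its default filter, TMM scaling and the robust quasi-likelihood test with treatment as the only term, on the whole table, with 2-sided p-values adjusted by Benjamini-Hochberg over 11711 genes. The threshold was 0.05. Each SE was derived from the F statistic of the gene. TMM factors also scale the CPM values. Exon length (merged exons), GC content, overlaps and shared 50-base stretches came from GENCODE M21, and promoters from RefSeq. Levels between genes were planned on FPKM but use CPM per kilobase of merged exon, because the length behind FPKM differed: it lay within 1% of the merged exon length for 11.4% of tested genes. The test and the trend removal (lowess, span 0.3) were also run on simulated data. The outcome is not given here, so no support is drawn from it. Alternatives were other scalings, no filter, DESeq2 1.42.0, limma 3.58.1 (voom, and trend on log2 of FPKM plus 1 or 0.1), the replicate block, length trends and each library left out.

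The members and lists were chosen with earlier results of these data known. Named are the members called, those with separate groups, the 6 with the highest CPM, up to 5 called genes per other list by smallest p, and Irf3, Irf1, Ifnar1, Ifnar2, Usp18, Ifnb1 and Cxcl10. Tests of fold changes cover 3 libraries per group, and no library pair of a group agreed within sampling noise. Chi-square per degree of freedom was 20.1 for DMSO 1 and 2, 21.1 for DMSO 1 and 3, and 6.98 for DMSO 2 and 3. It was 19.2 for BPAP 1 and 2, 18.3 for BPAP 2 and 3, and 8.73 for BPAP 1 and 3. DMSO 1 and BPAP 2 thus differed most from the other libraries of their group. Some genes of these lists are not reported here by name.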

Additional observations from a re-analysis of the deposited data

How the results depend on the processing

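The number of members that rose stayed between 4 and 6 under every alternative, and was 5 or 6 without any 1 library. The number that fell was 1 with limma-trend on log2(FPKM + 1) over all genes above 0, 1 after adjustment for exon length and GC, 0 with the FPKM length trend removed, 1 with that trend removed and the replicate block, and 0 to 2 without 1 library. The median log2 fold change of the members was 0.19 with no filter, -0.0021 and -0.015 with limma-trend on log2(FPKM + 1) and log2(FPKM + 0.1) over 19 members, 0.014 on log2(FPKM + 1) over all genes above 0, and 0.067 to 0.27 without 1 library. With the replicate block alone the counts were 6 higher and 2 lower and the median 0.14; same-numbered libraries had correlations of 0.101, 0.054 and 0.0098 in their deviations, so the numbers were not taken as pairs. Of 280 values for 16 named members under alternatives, 257 kept direction and side of the threshold, 21 lost the call and 2 changed sign, Ifi203 to 0.19 and Ifi35 to -0.0057 after adjustment for exon length and GC. Of 376 values for 21 other genes, 317 kept both, 50 lost the call, 3 gained it (all Ifnar2) and 6 changed sign. Tank became 0.017 after adjustment for exon length and GC. Irf3 became -0.049 with the FPKM length trend removed, -0.053 with the replicate block added to that, -0.028 after adjustment for exon length and GC, and -0.12 to 0.21 without 1 library. Where nothing above names the cause of a shift, the cause was not tested. Below the filter were 8 members, which had at most 19 counts in a library and were not tested.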
